A study of Mus musculus with 34 samples.

Results

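The nuclear-encoded subunits of the oxidative phosphorylation complexes were followed across dendritic cells (DCs) of mouse spleen. Members were taken by gene symbol: every gene with a probe set of its own whose symbol names a subunit of complex I (Nduf), complex II (Sdha to Sdhd), complex III (Uqcr and Cyc1), complex IV (Cox4 to Cox8) or complex V (Atp5), with Cox6a2 kept out. This rule found 80 of the 22180 genes tested, 33 in complex I, 4 in complex II, 9 in complex III, 16 in complex IV and 18 in complex V. The pseudogenes Uqcrh-ps1 and Atp5c1-ps fall under it by name. The 13 mitochondrially encoded subunits were not analysed here.

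Expression was measured on 34 Affymetrix arrays of DCs sorted from the spleens of C57BL/6 mice. Sorted DC subsets made up 16 arrays, with 4 each for Mst1/2-KO CD8+, WT CD8+, Mst1/2-KO CD8- and WT CD8- DCs. Total DCs were profiled on 3 Mst1/2-KO and 4 WT arrays. Mst1 and Mst2 are the core kinases of the Hippo pathway. A pair of further experiments used Rag1-KO mice, whose T and B cells do not mature. Experiment 1 held 3 arrays labelled Rag1-KO p38-KO and 4 labelled Rag1-KO, all from DCs stimulated with an antibody against CD40. Experiment 2 held 2 anti-CD40-stimulated Rag1-KO arrays, 1 non-stimulated Rag1-KO array and 1 anti-CD40-stimulated WT array. The labels give no age, do not say in which cells the alleles were deleted, and leave unsaid whether each array had its own animal, so every p-value measures the spread between arrays.

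Oxidative phosphorylation is carried out in the inner mitochondrial membrane. Complexes I and II pass electrons from NADH and succinate to ubiquinone, complex III passes them on to cytochrome c, complex IV reduces oxygen, and complex V, the ATP synthase, makes ATP from the proton gradient that complexes I, III and IV build. Most subunits are encoded in the nucleus and are transcribed in nearly all cells, while several complex IV subunits also have isoforms restricted to muscle, lung or testis. DCs are known to rely on mitochondrial respiration when resting and to turn towards glycolysis after activation.

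The promoters of nuclear-encoded subunits are known for binding sites of the factors NRF1, GABP (also called NRF2) and YY1. RefSeq promoter windows (GRCm38.p6), each spanning 250 bases before to 50 bases after the gene start, matched 65 of the 80 members and gave 70 windows. The NRF1 core, searched as GCGCATGC on both strands, lay in 14.3% of the member windows against 2.71% of all 32851 windows. The GABP/ETS core, CCGGAAG, lay in 24.3% against 8.86%, and the YY1 core, AANATGGC, in 22.9% against 6.05%. The CCAAT box (CCAAT) lay in 38.6% against 37.4%, the GC box (GGGCGG) in 41.4% against 35.7%, and the TATA box (TATAAA) in 12.9% against 13.6%. Each motif was searched on both strands. Matches of NRF1 on the 2 strands can overlap, as they do in Atp5k below. A match is a description of the letters and not a measured binding site.

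Shown here are promoters of members named in the results below, and their part in the expression differences was not tested. Ndufa12 (chr10:94198785-94199034, plus strand) had the smallest p among the members higher in WT CD8+ than in CD8- DCs, and Cox6b2 (chr7:4753095-4753344, minus strand) was the member lower in CD8+ DCs. Atp5k (chr5:108434400-108434649, minus strand), Uqcr11 (chr10:80406822-80407071, minus strand) and Ndufs8 (chr19:3912775-3913024, minus strand) were the members with the smallest p among those higher in WT CD8+ DCs whose printed bases carry the NRF1, GABP/ETS and YY1 core. Each is the 250 bases before the gene start, 5′ to 3′ on the gene's strand, and capitals mark a match to those 3 cores.
Ndufa12: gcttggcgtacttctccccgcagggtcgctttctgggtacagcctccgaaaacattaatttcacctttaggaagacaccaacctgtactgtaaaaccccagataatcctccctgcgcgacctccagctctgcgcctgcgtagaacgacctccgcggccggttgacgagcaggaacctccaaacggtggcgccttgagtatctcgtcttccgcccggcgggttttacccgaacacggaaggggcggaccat
Cox6b2: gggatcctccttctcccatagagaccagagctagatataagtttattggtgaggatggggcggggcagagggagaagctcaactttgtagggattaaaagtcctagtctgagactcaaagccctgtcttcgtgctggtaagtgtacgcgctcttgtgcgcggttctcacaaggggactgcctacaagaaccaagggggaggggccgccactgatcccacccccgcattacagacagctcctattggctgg
Atp5k: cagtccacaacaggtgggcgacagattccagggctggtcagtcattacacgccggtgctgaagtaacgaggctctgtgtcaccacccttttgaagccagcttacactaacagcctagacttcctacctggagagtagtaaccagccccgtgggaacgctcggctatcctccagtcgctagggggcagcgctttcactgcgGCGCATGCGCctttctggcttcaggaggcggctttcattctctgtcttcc
Uqcr11: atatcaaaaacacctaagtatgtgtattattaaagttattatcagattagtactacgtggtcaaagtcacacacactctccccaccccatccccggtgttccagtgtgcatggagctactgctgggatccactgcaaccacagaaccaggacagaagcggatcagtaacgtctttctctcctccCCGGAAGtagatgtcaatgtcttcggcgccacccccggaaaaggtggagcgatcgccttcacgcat
Ndufs8: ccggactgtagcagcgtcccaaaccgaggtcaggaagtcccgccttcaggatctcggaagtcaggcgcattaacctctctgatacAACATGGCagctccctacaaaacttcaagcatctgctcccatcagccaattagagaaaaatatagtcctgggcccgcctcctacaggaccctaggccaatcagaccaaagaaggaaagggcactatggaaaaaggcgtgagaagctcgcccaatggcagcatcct
The capitals in Atp5k hold the NRF1 core on both strands, those in Uqcr11 the GABP/ETS core and those in Ndufs8 the YY1 core. Ndufa12 and Cox6b2 hold none of the 3 in the bases shown.

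The deposited values were log2 signals whose median lay between 4.11 and 4.20 on every array. They carry a constant per probe set and experiment label, so a gene's levels were compared within a label only, and one probe set's level was not set against another's. Arrays of a group correlated at 0.986 to 0.996 over all genes tested. The subunit genes were steadier than genes at large, with a median SD within groups of 0.0976 against 0.149 over all genes in the sorted subsets, 0.104 against 0.158 in total DCs and 0.0982 against 0.117 in experiment 1. In experiment 1 some genes hold an identical value on several arrays, such as Cox8b at 3.43 on Rag1-KO replicates 2, 3 and 4. The lowest SD within groups there was 0.0, so the spread of experiment 1 may be too small. Stk4, which encodes Mst1, had log2 signals of 7.22 to 7.64 in Mst1/2-KO CD8+ DCs and 8.26 to 8.46 in WT CD8+ DCs, 7.39 to 7.67 in Mst1/2-KO CD8- DCs and 8.15 to 8.44 in WT CD8- DCs, and 7.32 to 7.50 in Mst1/2-KO total DCs and 8.44 to 8.58 in WT total DCs. Stk3, which encodes Mst2, was not analysed here. Mapk14, which encodes p38 alpha, had log2 signals of 8.54, 8.51 and 8.38 on the arrays labelled Rag1-KO p38-KO and 8.38, 8.48, 8.23 and 7.88 on the Rag1-KO arrays, so it did not bear out that label. Whether its probes lie in the deleted part is not stated. The measured DC markers averaged 10.05 to 10.19 in every group, a range that pools all labels and so includes the constant of each label.

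Each array was summarised by the median over the 80 members of its log2 deviation from the mean of the group means within its experiment label. On average this median was highest in CD8+ DCs and, within each subset, higher in Mst1/2-KO than in WT. It averaged 0.11 ± 0.01 on the log2 scale in Mst1/2-KO CD8+ DCs, 0.05 ± 0.04 in WT CD8+ DCs, -0.02 ± 0.05 in Mst1/2-KO CD8- DCs and -0.12 ± 0.04 in WT CD8- DCs (SD, n = 4 each). Single arrays ran from 0.10 to 0.12 in Mst1/2-KO CD8+ against -0.01 to 0.09 in WT CD8+ DCs, and from -0.08 to 0.04 in Mst1/2-KO CD8- against -0.18 to -0.09 in WT CD8- DCs, so the genotypes did not overlap in either subset. In total DCs it was 0.05 ± 0.002 in Mst1/2-KO (n = 3) and -0.06 ± 0.01 in WT (SD, n = 4), again without overlap. In experiment 1 it was 0.01 ± 0.02 on the arrays labelled Rag1-KO p38-KO (n = 3) and -0.01 ± 0.07 on the Rag1-KO arrays (SD, n = 4), which overlapped. In bulk RNA of sorted cells, a difference in the share of a cell type and a difference in RNA per cell cannot be told apart.

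**Figure D1:**
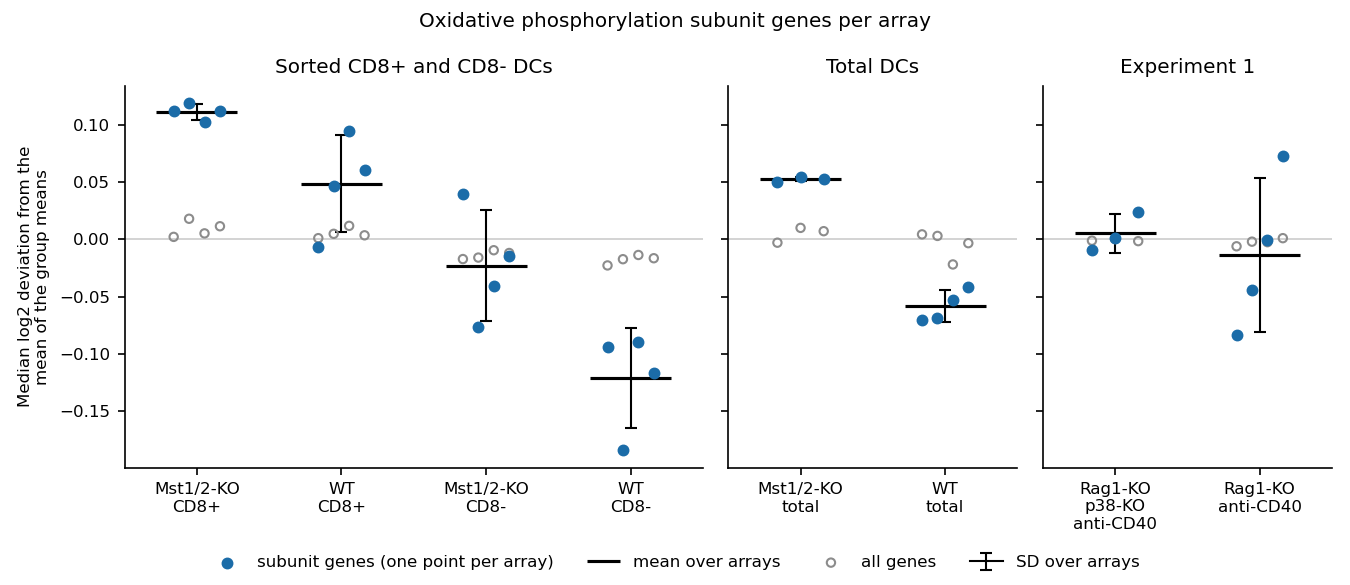
Each point is an array and gives the median over the 80 subunit genes of its log2 deviation from the mean of the group means within the experiment label (y axis), beside the same median over all genes. Every Mst1/2-KO array lies above every WT array of the same sorted subset (by a narrow gap) and of total DCs, while the medians over all genes stay near 0. All genes include many that are dimmer than the members.

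The first comparison asks how the subunit genes differ between the DC subsets, CD8+ DCs being known for cross-presentation and CD8- DCs for presentation to CD4 T cells. In WT mice, 24 of the 80 members rose in CD8+ relative to CD8- DCs, where 11% of all genes tested did, and 1 fell, where 10% did. In Mst1/2-KO mice 16 rose (9.93% of all genes) and 1 fell (9.3%). The median difference over the members was 0.14 in Mst1/2-KO and 0.16 in WT on the log2 scale, against 0.03 and 0.02 over all genes. Of the 80, 68 lay above 0 in Mst1/2-KO and 72 in WT, where 56.2% and 56.1% of all genes did. The CD8+ and CD8- arrays did not overlap, with CD8+ above, for 24 members in Mst1/2-KO (12% of all genes) and 29 in WT (12.2%). Members are brighter than the typical gene, and in a fit on the 11090 genes above the median gene, which 74 members passed, 20 rose in Mst1/2-KO where 19.5% of those genes did, and 27 in WT where 21.3% did. These are small shifts: apart from Cox6b2, the members called in WT differed by 0.21 to 0.58.

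Complex I had 10 of 33 members higher in CD8+ DCs of WT mice and 7 of 33 in Mst1/2-KO mice, with none lower. Ndufa12, an accessory subunit of the matrix arm, had log2 signals of 10.21, 10.37, 10.32 and 10.32 in Mst1/2-KO CD8+ DCs, 9.90, 10.08, 10.06 and 10.13 in WT CD8+ DCs, 9.90, 9.64, 9.75 and 9.70 in Mst1/2-KO CD8- DCs and 9.47, 9.43, 9.45 and 9.51 in WT CD8- DCs. All CD8+ arrays lay above all CD8- arrays of the same genotype, and the means of the 4 groups stepped down in the order given. It was higher in CD8+ DCs by 0.56 ± 0.07 (SE) in Mst1/2-KO (adjusted p = 1.77e-05) and by 0.58 ± 0.07 in WT (limma, Benjamini-Hochberg adjusted p = 1.06e-05).

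Ndufs4, an accessory subunit whose loss in mice causes a Leigh-like encephalopathy, had log2 signals of 9.86, 9.93, 9.78 and 9.65 in Mst1/2-KO CD8+, 9.65, 9.70, 9.61 and 9.63 in WT CD8+, 9.26, 9.17, 9.25 and 9.27 in Mst1/2-KO CD8- and 9.18, 9.13, 9.21 and 9.09 in WT CD8- DCs. The subsets were well apart in both genotypes, by 0.57 in Mst1/2-KO (adjusted p = 5.29e-06) and 0.50 in WT (adjusted p = 2.56e-05). Ndufs8, one of the iron-sulfur core subunits, differed by 0.41 (adjusted p = 0.0192) and 0.49 (adjusted p = 0.00508), with 8.63, 8.51, 8.61 and 8.98 in Mst1/2-KO CD8+, 8.57, 8.61, 8.65 and 8.58 in WT CD8+, 8.39, 7.88, 8.45 and 8.37 in Mst1/2-KO CD8- and 8.24, 8.03, 8.06 and 8.12 in WT CD8- DCs. Replicate 2 of Mst1/2-KO CD8- stood below its group there. Ndufa4, first assigned to complex I and now counted with complex IV, rose by 0.22 in Mst1/2-KO and 0.31 in WT. The accessory subunit Ndufa2 rose by 0.20 and 0.30, and the iron-sulfur core subunit Ndufv2 by 0.24 and 0.22. Ndufab1, the mitochondrial acyl carrier protein, passed in Mst1/2-KO (0.41, adjusted p = 0.0128) and missed in WT (0.27, adjusted p = 0.0993). Ndufc1, Ndufa9, Ndufb7 and Ndufb11, all accessory subunits, passed in WT and missed in Mst1/2-KO. Whether the subset difference depends on genotype is the same test as the difference of the genotype effects given further below, which called no member.

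The 4 complex II subunits lay above 0 in both genotypes, and none passed without the replicate block described below. Their median difference was 0.10 in Mst1/2-KO and 0.19 in WT. Sdhb, the iron-sulfur subunit, differed by 0.18 in Mst1/2-KO (adjusted p = 0.279) and 0.24 in WT (adjusted p = 0.113, and 0.0342 with the block).

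Complex III had 4 of 9 members higher in CD8+ DCs of Mst1/2-KO mice and 5 of 9 of WT mice, with the highest medians of the complexes, 0.25 and 0.24. Uqcrfs1, the Rieske iron-sulfur protein, had log2 signals of 7.21, 7.09, 7.11 and 7.27 in Mst1/2-KO CD8+, 7.13, 7.11, 7.07 and 7.14 in WT CD8+, 6.85, 6.73, 6.79 and 6.98 in Mst1/2-KO CD8- and 6.88, 6.72, 6.75 and 6.60 in WT CD8- DCs. The subsets did not overlap in either genotype, and the difference was 0.33 in Mst1/2-KO (adjusted p = 0.00385) and 0.38 in WT (adjusted p = 0.00124). The ubiquinone-binding subunit Uqcrb rose by 0.31 and 0.37 and the core subunit Uqcrc2 by 0.33 and 0.24. Uqcr11, a small subunit, rose by 0.48 in WT (adjusted p = 6.11e-04) and differed by 0.25 in Mst1/2-KO (adjusted p = 0.0682).

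Complex IV held the one subunit that fell. Cox6b2, known as the testis isoform of the ubiquitous Cox6b1, had log2 signals of 5.32, 5.64, 5.07 and 5.42 in Mst1/2-KO CD8+ DCs, 4.83, 5.59, 5.04 and 5.41 in WT CD8+ DCs, 7.48, 7.34, 7.24 and 7.44 in Mst1/2-KO CD8- DCs and 6.98, 6.04, 6.19 and 6.61 in WT CD8- DCs. It was 4.03-fold lower in CD8+ DCs of Mst1/2-KO mice (-2.01 ± 0.19, SE, adjusted p = 3.02e-07) and 2.36-fold lower in those of WT mice (-1.24 ± 0.19, adjusted p = 8.24e-05). Cox7b, a small structural subunit, rose by 0.32 in Mst1/2-KO (adjusted p = 0.00254, and 0.0752 when all its probe sets were averaged) and by 0.35 in WT (adjusted p = 9.43e-04). Cox8a and Cox7a2 rose in WT only by the threshold, by 0.24 and 0.21. None of the other tissue-restricted isoforms was called in any comparison. The ranges that follow pool all labels and so include the constant of each label. Over all arrays the lung isoform Cox4i2 ran from 4.10 to 4.76, the muscle isoforms Cox7a1 and Cox8b from 4.12 to 5.11 and 3.12 to 3.83, and the testis isoforms Cox7b2 and Cox8c from 2.12 to 2.46 and 2.96 to 3.43.

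In complex V, 4 of 18 members rose in CD8+ DCs of Mst1/2-KO mice and 6 of 18 in WT mice, with none lower. Atp5b, the catalytic beta subunit, had log2 signals of 10.98, 10.98, 10.99 and 11.07 in Mst1/2-KO CD8+, 10.94, 10.82, 10.93 and 10.83 in WT CD8+, 10.74, 10.70, 10.82 and 10.74 in Mst1/2-KO CD8- and 10.62, 10.60, 10.63 and 10.64 in WT CD8- DCs. The groups were tight and the subsets apart, by 0.26 in both genotypes (adjusted p = 0.00466 in Mst1/2-KO and 0.00435 in WT). Atp5g3, one of the genes for the membrane c ring, rose by 0.36 in Mst1/2-KO (adjusted p = 0.00307) and 0.39 in WT (adjusted p = 0.00138). The central stalk subunit Atp5c1 rose by 0.31 and 0.27 and the peripheral stalk subunit Atp5pb by 0.25 and 0.27.

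**Figure D2:**
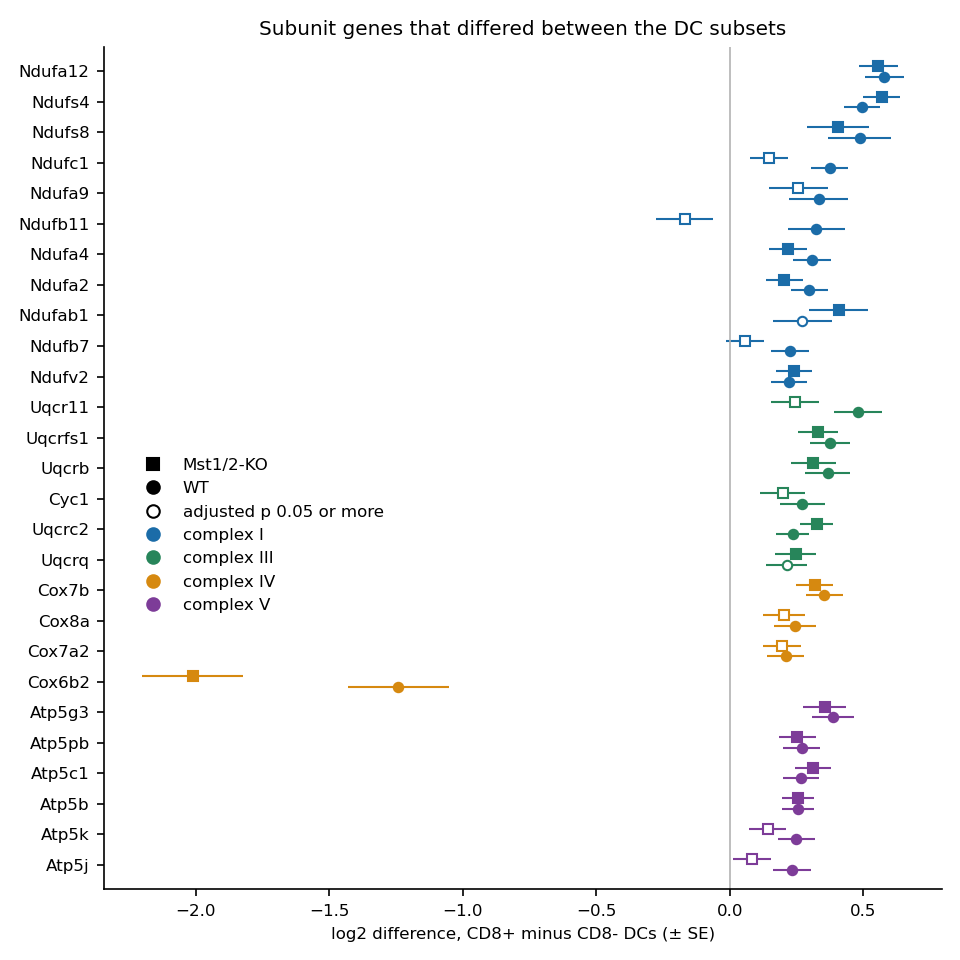
Points give the log2 difference of CD8+ minus CD8- DCs (x axis, bars are SE) for each subunit gene called in either genotype, squares for Mst1/2-KO and circles for WT, coloured by complex and open where adjusted p is 0.05 or more. Cox6b2 lies far to the left of 0 at -2.01 and -1.24, and all others lie above 0 except Ndufb11 in Mst1/2-KO at -0.17.

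By these calls 14 members rose in CD8+ DCs of both genotypes, 2 (Ndufab1 and Uqcrq) in Mst1/2-KO alone and 10 in WT alone. The genotypes rest on different arrays, but these shared a fit and each gene's spread, so the calls are not fully independent. The share of all genes called in both is not given here, so whether 14 members is unusual was not tested. Replicate numbers paired the WT CD8+ and CD8- arrays. With the replicate as a block, Cox7a2 (adjusted p = 0.0531), Ndufb7 (0.0742) and Ndufv2 (0.0570) missed the threshold in WT, and Ndufs5, an accessory subunit of complex I that differed by -0.33 (adjusted p = 0.0550 without the block), was called lower (0.0432). Sdhb (0.0342), Uqcrq (0.0400), Ndufs1 (0.0385) and Atp5md (0.0143) were then called higher in WT as well, so that Uqcrq passed in both genotypes. Without replicate 4 of the Mst1/2-KO CD8- DCs, Ndufv2 missed it in Mst1/2-KO (0.0543). Arrays of the Mst1/2-KO subsets with the same number also correlated better than those with other numbers. With the block there, Ndufa2 (adjusted p = 0.0845) and Ndufa4 (0.0559) missed the threshold, while Atp5md (0.0110) and Cox7c (0.0308) were called higher. Markers of other cells moved with the subset: 8 of 9 measured T cell markers were lower in CD8+ DCs of either genotype (mean log2 signal 4.34 against 5.47 in Mst1/2-KO and 4.55 against 5.72 in WT), as were 9 of 12 macrophage and monocyte markers (6.98 against 8.30 and 6.93 against 8.16). Their part in the subunit differences was not tested.

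The next comparison asks what loss of Mst1/2 does in each subset. In CD8- DCs, 7 of the 80 members rose in Mst1/2-KO, where 3.9% of all genes did, and 1 fell, where 2.79% did. The median difference was 0.10 against 0.00 over all genes, and 62 of 80 members lay above 0, where 50.4% of all genes did. The KO and WT arrays did not overlap, KO above, for 18 members (6.52% of all genes). At an unadjusted p under 0.05 there were 23 members, where 18.1% of all genes passed. Among genes above the median gene, 11 of the 74 members that passed the filter rose, where 9.35% of such genes did. The median differences there were 0.11 for these members and 0.02 for all such genes.

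Cox6b2 had the largest rise, with 7.48, 7.34, 7.24 and 7.44 in Mst1/2-KO CD8- DCs against 6.98, 6.04, 6.19 and 6.61 in WT CD8- DCs. All KO arrays lay above all WT arrays, a difference of 1.89-fold (0.92 ± 0.19 log2, SE, adjusted p = 0.00626). Cox6a2, the muscle isoform of another complex IV subunit and kept out of the members, had 11.07, 10.67, 10.71 and 10.42 against 7.45, 6.82, 6.52 and 7.16 in these groups, 13.3-fold higher in KO (adjusted p = 2.53e-09). Cox6a2 is also a known marker of plasmacytoid DCs.

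Uqcr11 had 8.06, 7.62, 7.88 and 7.94 in Mst1/2-KO CD8- DCs against 7.48, 7.29, 7.45 and 7.58 in WT CD8- DCs. The lowest KO array lay just above the highest WT array, and the difference was 0.42 ± 0.09 (SE, adjusted p = 0.00767). Cox7a2l, which helps to join complexes III and IV into supercomplexes and of which C57BL/6 mice are known to carry a shortened form, went the other way, with 8.98, 8.94, 8.63 and 8.78 in Mst1/2-KO CD8- DCs against 9.23, 9.25, 9.15 and 9.20 in WT CD8- DCs. It fell by 0.38 on the log2 scale (SE 0.08, adjusted p = 0.00773), with the groups apart and the WT arrays close together.

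Those 3 genes passed in all 8 alternative settings and without each of the 8 arrays in turn. The other 5 were smaller and less steady. Ndufc1 had 6.54, 6.36, 6.44 and 6.54 in Mst1/2-KO CD8- DCs against 6.17, 6.20, 6.22 and 6.10 in WT CD8- DCs (0.30, adjusted p = 0.0153). Ndufb7 had 9.39, 9.48, 9.40 and 9.43 against 9.25, 9.05, 9.14 and 9.09 (0.29, adjusted p = 0.0184), and the core complex III subunit Uqcrc1 had 8.29, 8.33, 8.39 and 8.48 against 8.11, 7.88, 8.11 and 7.99 (0.35, adjusted p = 0.0203). For each of these the KO and WT arrays did not overlap. Ndufa12, with the values given above, differed by 0.28 (adjusted p = 0.0261). Sdhc, a membrane anchor of complex II, had 7.93, 7.93, 8.0 and 7.89 in Mst1/2-KO CD8- DCs against 7.58, 7.64, 7.67 and 7.75 in WT CD8- DCs (0.28, adjusted p = 0.0320).

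These 5 calls depended on single arrays, and 2 of them on the setting. Ndufc1 missed the threshold without WT replicate 4 (adjusted p = 0.0527), KO replicate 1 (0.0520) or KO replicate 4 (0.0574). Ndufb7 missed it without WT replicate 2 (0.0707), WT replicate 4 (0.0555) or KO replicate 4 (0.0520). Uqcrc1 missed it without WT replicate 2 (0.0824), WT replicate 4 (0.0559), KO replicate 3 (0.0518) or KO replicate 4 (0.0768), and Ndufa12 without KO replicate 1 (0.0928), KO replicate 3 (0.0591), WT replicate 2 (0.0797) or WT replicate 3 (0.0623). Ndufa12 also missed it with the mean of its probe sets (0.0556) or in a fit on the compared groups alone (0.0641), as did Sdhc after quantile normalization (0.0551) or in that fit (0.0506). Sdhc passed without WT replicate 4 and missed without each of the other 7 arrays, at adjusted p from 0.0519 to 0.0887. The number of members called was 4 without WT replicate 2, and 5 without WT replicate 4, KO replicate 1, KO replicate 3 or KO replicate 4.

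By complex, the median difference in CD8- DCs was 0.10 for complex I, 0.24 for complex II, 0.10 for complex III, 0.07 for complex IV and 0.09 for complex V. No complex V member passed. Atp5c1-ps (-0.42, adjusted p = 0.0613) and Atp5k, the e subunit (0.21, adjusted p = 0.0853), came nearest there. The pseudogene Atp5c1-ps had a weak signal, 2.26 to 2.85 in Mst1/2-KO and 2.80 to 3.07 in WT CD8- DCs, where array medians were 4.11 to 4.20. Other cell markers moved with genotype in CD8- DCs. Of the measured markers, 4 of 9 of plasmacytoid DCs, Cox6a2 among that list, were higher in KO (list mean 8.08, 7.83 to 8.22, against 7.26, 6.99 to 7.49), as were 6 of 9 of CD8+ DCs (8.55, 8.23 to 8.70, against 7.95, 7.67 to 8.28) and 17 of 19 proliferation genes (7.99, 7.87 to 8.22, against 7.42, 7.38 to 7.50). Cox6a2, with its large difference given above, raises the KO mean of its list, and no mean without it is given here. Of the CD8- DC markers 2 were higher and 4 of 9 lower, and 4 of 9 B cell markers were lower (5.18 against 5.69). Their part in the subunit differences was not tested.

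In CD8+ DCs no member passed limma's test, where 0.888% of all genes did. At an unadjusted p under 0.05 there were 17 members, where 10.6% of all genes passed. The median difference was 0.08 against 0.00 over all genes, and 60 of 80 members lay above 0, where 51.5% of all genes did. Among genes above the median gene, the medians were 0.09 for members and 0.02 for all such genes. The KO and WT arrays did not overlap, KO above, for 16 members (3.3% of all genes). The lowest adjusted p belonged to Cox7a2l, with 9.13, 9.0, 8.96 and 8.92 in Mst1/2-KO CD8+ DCs against 9.21, 9.38, 9.35 and 9.31 in WT CD8+ DCs (-0.31 ± 0.08, SE, adjusted p = 0.0847). Again all KO arrays lay below all WT arrays. Ndufa12 differed by 0.26 (adjusted p = 0.124) and Ndufb8, an accessory complex I subunit, by 0.24 (adjusted p = 0.141). Cox6b2, which moved most in CD8- DCs, differed by 0.15 ± 0.19 (SE, adjusted p = 0.863). Of the proliferation genes 4 of 19 were higher in KO CD8+ DCs (list mean 7.80, 7.56 to 8.13, against 7.36, 7.29 to 7.42), and their part was not tested.

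The genotype effects in the 2 subsets were compared directly. No member passed limma's test of the difference, CD8- minus CD8+, where 0.559% of all genes did. At an unadjusted p under 0.05 there were 4 members (5%), below the 9.15% of all genes. The median of the difference was 0.03. It was 0.00907 without Mst1/2-KO CD8- replicate 1, 0.00916 without WT CD8- replicate 2, 0.0165 without Mst1/2-KO CD8+ replicate 1, 0.0158 without WT CD8+ replicate 3 and 0.0548 without WT CD8+ replicate 1, and up to 0.0647 in other settings. Ndufb11, an accessory complex I subunit, had the lowest adjusted p (0.49 ± 0.15, SE, adjusted p = 0.187), with 6.78, 6.72, 6.62 and 6.49 in Mst1/2-KO CD8+ against 6.93, 6.92, 6.92 and 6.83 in WT CD8+ DCs, and 7.01, 6.62, 6.75 and 6.90 in Mst1/2-KO CD8- against 6.81, 6.31, 6.68 and 6.50 in WT CD8- DCs. All its KO arrays were below WT in CD8+ DCs, while the CD8- groups overlapped. Cox6b2 followed (0.77 ± 0.27, SE, adjusted p = 0.289). The 8 calls in CD8- DCs and 0 in CD8+ DCs are thus not shown to differ between the subsets.

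In total DCs no member passed limma's test, where 0.848% of all genes did, and 10 members had an unadjusted p under 0.05, where 13.2% of all genes did. The median difference was 0.13 against 0.00 over all genes, and 67 of 80 members lay above 0, where 50.7% of all genes did. For 24 members every Mst1/2-KO array lay above every WT array, where 8.26% of all genes did so. In the fit on genes above the median gene the medians were 0.14 and 0.04. Ndufb7 had 9.48, 9.46 and 9.59 in Mst1/2-KO total DCs against 9.19, 9.09, 9.16 and 9.22 in WT total DCs (0.34 ± 0.09, SE, adjusted p = 0.119). Uqcrc1 had 8.54, 8.56 and 8.66 against 7.77, 8.07, 8.29 and 8.21 (0.50 ± 0.13, SE, adjusted p = 0.123), and Uqcr11 had 7.96, 7.95 and 7.93 against 7.71, 7.70, 7.69 and 7.65 (0.26, adjusted p = 0.204). The groups did not overlap for any of these 3. Cox7a2l overlapped, with 9.22, 9.02 and 9.28 in Mst1/2-KO total DCs against 8.93, 9.50, 9.43 and 9.54 in WT total DCs (-0.18, adjusted p = 0.703). The overlap came from WT replicate 1 alone. For Cox6a1, of complex IV, every KO array lay above every WT array in total DCs (11.33 to 11.39 against 11.07 to 11.32). The same held in CD8+ DCs (11.33 to 11.48 against 11.20 to 11.30) and CD8- DCs (11.27 to 11.39 against 11.10 to 11.21). Cox6a1 was called in no comparison, and the share of all genes with this pattern is not given here. All 19 proliferation genes lay above 0 (list mean 7.88 against 7.43) with 0 passing, all 9 CD8+ DC markers lay above 0 (9.88 against 9.53) and 1 of 9 CD8- DC markers was lower (6.35 against 6.91). Their part was not tested.

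**Figure D3:**
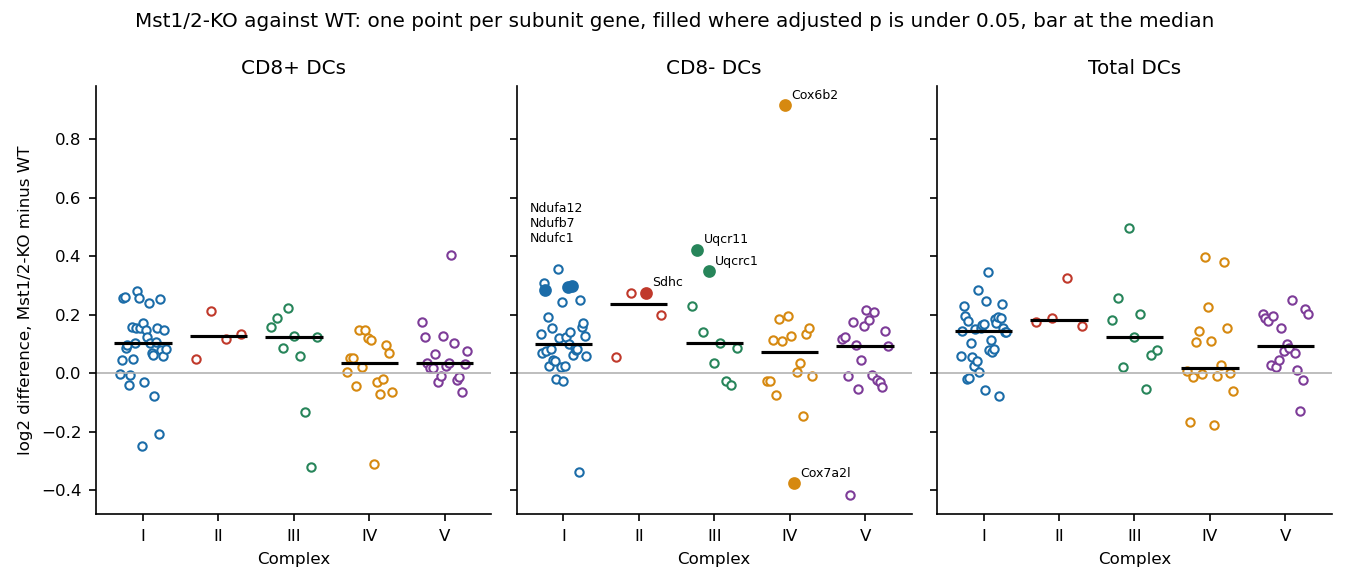
Each point is a subunit gene and gives the log2 difference of Mst1/2-KO minus WT (y axis) in CD8+, CD8- and total DCs by complex (x axis), filled and named where adjusted p is under 0.05, with a bar at the median of the complex. Filled points occur in CD8- DCs, where Cox6b2 lies at 0.92 and Cox7a2l at -0.38, and the medians of all complexes lie above 0 in the 3 panels.

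**Figure D4:**
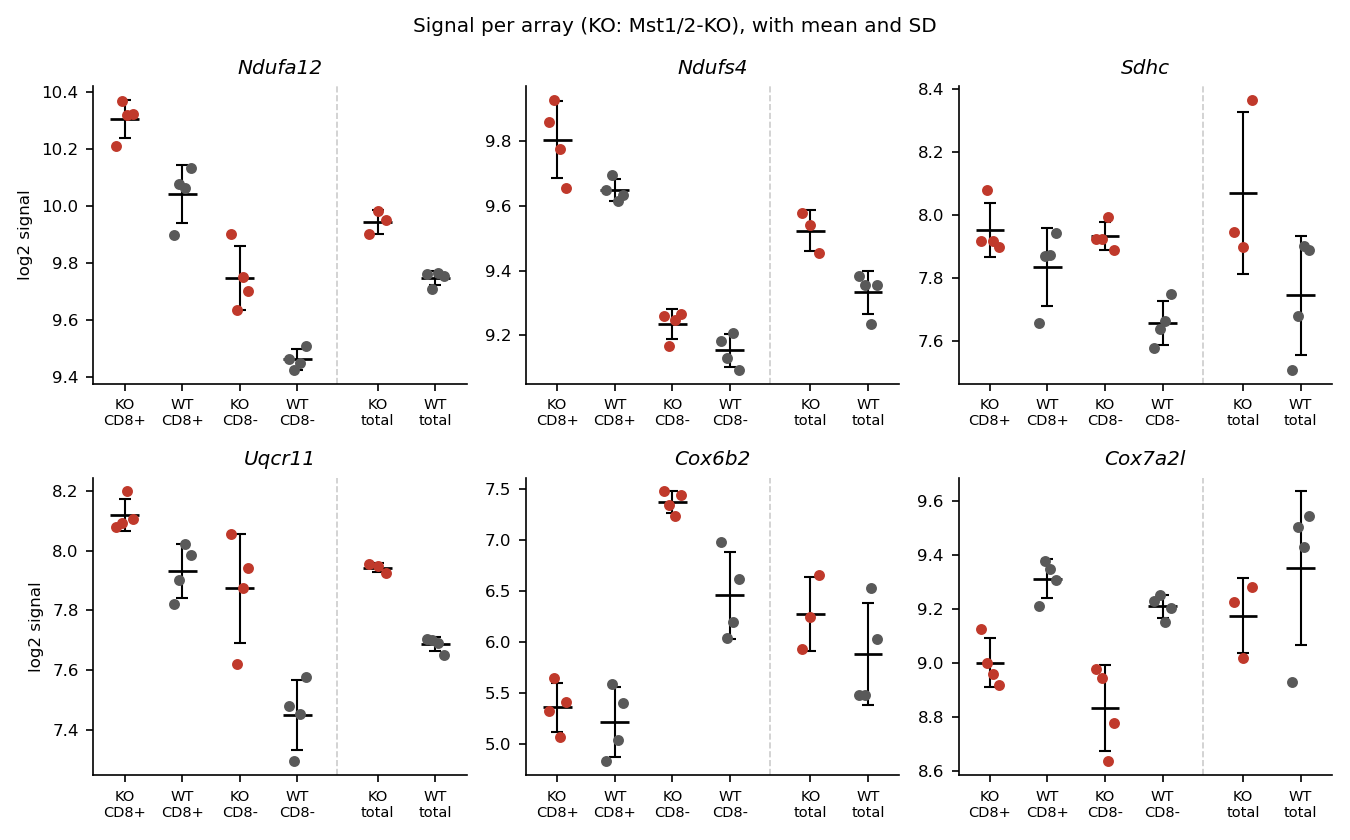
Log2 signal (y axis) of Ndufa12, Ndufs4, Sdhc, Uqcr11, Cox6b2 and Cox7a2l on each array of the sorted subsets and of total DCs, Mst1/2-KO left of WT, with the mean as a line and the SD as a bar. Cox6b2 separates the CD8- from the CD8+ arrays, and Cox7a2l lies lower in Mst1/2-KO in both sorted subsets.

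Other genes of the pathway were taken from lists. Of 44 measured assembly factors, 9 rose and 3 fell in CD8+ relative to CD8- DCs of Mst1/2-KO mice, and 12 rose and 3 fell in those of WT mice. Of all genes, 9.93% rose and 9.3% fell in Mst1/2-KO, and 11% and 10% in WT, which also holds for the lists below. Ndufaf6, a complex I assembly factor, rose by 1.37 and 1.18, and Coa5, for complex IV, by 0.70 and 0.78. Ndufaf7, the methyltransferase of complex I assembly, fell (-0.96 and -1.03), as did Sdhaf1, which helps mature the iron-sulfur subunit of complex II (-0.94 and -0.71). Between genotypes Sdhaf1 fell in KO in both subsets, with a difference of -0.64 ± 0.10 (SE) in CD8+ DCs (adjusted p = 0.00262) and of -0.41 in CD8- DCs, where Atpaf2 and Ndufaf2, for complexes V and I, rose by 0.38 and 0.36. In total DCs none of the 44 passed and 38 lay above 0, where 50.7% of all genes did.

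Of 20 measured genes of electron entry, carriers and exchangers, 5 rose and 1 fell in CD8+ DCs of either genotype. Cycs, cytochrome c, rose by 0.51 in Mst1/2-KO and 0.55 in WT, and Slc25a5, an ADP/ATP exchanger, by 0.27 and 0.28. Coq8a, needed for ubiquinone synthesis, fell (-0.73 and -0.97). In CD8- DCs it was also the one gene of this list that changed with genotype (-0.65). Of 14 transcriptional regulators, 0 rose and 2 fell in CD8+ relative to CD8- DCs of Mst1/2-KO mice, and 2 rose and 4 fell in WT mice. Ppargc1a, the coactivator PGC-1 alpha known to drive mitochondrial biogenesis, was lower in CD8+ DCs of both (-0.35 and -0.81) and lower in KO than in WT CD8- DCs (-0.40), where the nuclear receptor gene Esrrg was lower (-0.50) and the related coactivator Pprc1 higher (0.44). None of the 14 passed between genotypes in CD8+ DCs.

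In the stimulated DCs of experiment 1, no member and no gene at all passed limma's test between Rag1-KO p38-KO and Rag1-KO arrays, while 4 members (5%) and 8.41% of all genes had an unadjusted p under 0.05. The median member difference was 0.04, against 0.00 over all genes. It was 0.0258 and 0.0234 without Rag1-KO p38-KO replicates 2 and 3, and 0.00968, 0.0219 and 0.0629 without Rag1-KO replicates 1, 2 and 4. Among genes above the median gene, the medians were 0.04 for members and 0.02 for all such genes. For 4 members, every Rag1-KO p38-KO array lay above every Rag1-KO array, where 3.89% of all genes did so. Cox6b2 had 6.04, 7.08 and 6.34 on the arrays labelled Rag1-KO p38-KO and 5.79, 6.11, 5.49 and 5.86 on the Rag1-KO arrays (0.67, adjusted p = 0.583), which overlapped. Cox7a2l had 9.25, 9.32 and 9.21 against 9.03, 9.20, 8.75 and 8.86 (0.30, adjusted p = 0.579), which did not. All 10 neutrophil markers lay below 0 (list mean 4.67 against 5.96), and their part was not tested. The repeated values described above limit the SDs and p-values of experiment 1.

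Experiment 2 compared the 2 anti-CD40-stimulated Rag1-KO arrays with lone arrays, so the spread was pooled with experiment 1 and each lone array is assumed to vary like the others. After anti-CD40 no member passed limma's test against the non-stimulated array, where 0.0361% of all genes did. The median was 0.06 against -0.01 over all genes. Among genes above the median gene, the medians were 0.06 for members and 0.02 for all such genes. At an unadjusted p under 0.05 there were 5 members (6.25%), below the 13.1% of all genes, led by Ndufa10 (-0.28, adjusted p = 0.256) and Atp5g1, another c ring gene (0.44, adjusted p = 0.260). Between Rag1-KO and WT after anti-CD40 no member passed limma's test either, where 0.365% of all genes did. The median was -0.07 against -0.01 over all genes, and -0.0437 without Rag1-KO replicate 1. Among genes above the median gene, the medians were -0.08 for members and -0.06 for all such genes. At an unadjusted p under 0.05 there were 7 members (8.75%), a lower share than the 3113 of all 22180 genes, led by Ndufs1, the largest iron-sulfur core subunit (-0.33, adjusted p = 0.205), and Atp5h, of the peripheral stalk (-0.25, adjusted p = 0.249). Both comparisons use the same stimulated Rag1-KO arrays. Atp5g1 had a weak signal, 4.35 and 4.65 on the stimulated Rag1-KO arrays and 4.06 on the non-stimulated one, where array medians were 4.11 to 4.20.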

How the data were processed

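The deposited table holds log2 signals of 41155 probe sets on 34 arrays, normalized by the authors. The submitters' processing notes name RMA and Partek 6.6 without saying which did what. Within an experiment label 98.4% to 99.3% of probe sets share their last digits, across labels 0.00972% do, so levels were compared within labels only. Probe sets with exactly 1 gene symbol (23521) entered the tests, 1814 with several and 15820 with none did not, and the probe set with the highest mean stood for a gene, which left 22180 genes. The 80 members had 89 such probe sets, and all member symbols matched RefSeq.

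The lmFit and eBayes functions of limma 3.58.1 (R 4.3.3) were run on group means over all genes, the threshold being a Benjamini-Hochberg adjusted p of 0.05, and the script was tested on simulated data. The 16 sorted-subset arrays shared a fit, while total DCs and experiment 1 were each fitted alone. Names were drawn from the called members (the 12 with the smallest p where more), otherwise the 2 with the smallest p of a complex. Also drawn on were tissue-restricted isoforms, members whose arrays did not overlap in at least 3 comparisons, target genes and up to 4 called genes per pathway list. Not every gene that met these rules is printed. Further called members are given for completeness. The members and lists were chosen with earlier results of these data known.

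Deviations of arrays with the same replicate number correlated at 0.126 to 0.337 between WT CD8+ and CD8- DCs, so these numbers pair arrays. In the other comparisons at least 1 pair lay below 0.1. Between Mst1/2-KO CD8+ and CD8- DCs the same numbers gave 0.0926 to 0.213, and other numbers -0.176 to 0.0718. In experiment 1 these ranges were 0.0935 to 0.162 and -0.161 to 0.0758. Alternatives were quantile normalization, median centring, the mean of a gene's probe sets, genes above the median gene, trend and robust eBayes, array weights, a fit on the groups compared, the replicate block and leaving out each array. Precision is limited by the number of arrays.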

Additional observations from a re-analysis of the deposited data

Results flagged for a closer look

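Among 50 named members and the arrays' medians over all members, in groups of 4 arrays, 306 sets of values were examined for an array that stands apart, and in 19 the gap to the nearest array, as a share of the group's whole range, passed Dixon's critical value. Chance gives about 1 in 20 such sets. Among Mst1/2-KO CD8+ arrays the share was 0.859 for Atp5b, 0.923 for Ndufa4, 0.892 for Sdhc and 0.837 for Uqcrc2. Among WT CD8+ arrays it was 0.911 for Ndufa4, 0.839 for Ndufb11, 0.875 for Ndufb7 and 0.922 for Sdhb. Among Mst1/2-KO CD8- arrays it was 0.963 for Atp5h, 0.929 for Cox7a2 and 0.867 for Ndufs8, whose replicate 2 had 7.88 against 8.37 to 8.45 on the others. Among WT CD8- arrays it was 0.840 for Atp5k, 0.927 for Ndufs1 and 0.896 for Ndufv2. Among WT total DC arrays it was 0.872 for Atp5a1, 0.846 for Atp5d and 0.844 for Ndufs3. For Atp5a1 and Atp5d the low array was replicate 1, at 10.18 and 9.73. That array was also lowest for Cox7a2l (8.93) and Uqcrc1 (7.77) but highest for Cyc1 (8.61). Its median over all members, -0.0708, was close to the -0.0685 of replicate 2. Among Rag1-KO arrays of experiment 1 the share was 1.0 for Ndufb11, with 6.37 on 1 array and an identical 6.71 on the other 3. For Sdha it was 0.832 there, with an identical 9.18 on replicates 1 and 2. Such identical values raise the share.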

How the results depend on the processing

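No result reversed under any setting. In CD8+ DCs the genotype comparison called 2 members under trend and robust eBayes and 0 under the other settings. In CD8- DCs it called 13 members under trend and robust eBayes, 13 with array weights and 4 to 11 without single arrays, against 8. The median difference of the genotype effects ran from 0.00907 to 0.0548 without single arrays, and that of experiment 1 from 0.00968 to 0.0629. In total DCs 1 member was called under trend and robust eBayes. The median in total DCs was 0.11 after quantile normalization, 0.15 after median centring, 0.14 among genes above the median gene, 0.12 with the replicate block and 0.11 to 0.13 without single arrays. In experiment 2 the median for anti-CD40 was 0.0313 after quantile normalization and 0.11 after median centring, and that for Rag1-KO against WT was -0.0257 and -0.11, and -0.0752 to -0.0437 without single arrays. The 12 members with the smallest p between the WT subsets kept their calls in all 8 settings and without each of the 8 arrays. With the replicate block, WT subsets had 25 members higher and 2 lower in CD8+ DCs, and the count between genotypes in CD8- DCs was 8, as without it. In the Mst1/2-KO subsets the block called 16 higher and 1 lower but not the same genes. Ndufa2 (adjusted p = 0.0845) and Ndufa4 (0.0559) missed the threshold, and Atp5md (0.0110) and Cox7c (0.0308) passed. There and in experiment 1, arrays with the same number correlated better than arrays with other numbers. The block called 0 members in experiment 1. For experiment 2 no paired analysis was possible because its groups share 1 replicate number. In the Mst1/2-KO CD8+ against WT comparison, 4 of the 9 members with several probe sets had probe sets of opposite sign. The arrays' number limits small differences.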

Other observations

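A further 10 probe sets are annotated to a subunit together with another gene and were kept out of the members, since their signal cannot be assigned. In a fit on all probe sets, the one shared by Uqcr10 and Gm6293 was higher in CD8+ than in CD8- DCs by 0.31 in Mst1/2-KO (limma, adjusted p = 0.0343) and 0.42 in WT (adjusted p = 0.00425). The one shared by Ndufb2 and Adck2 was higher by 0.47 in Mst1/2-KO (adjusted p = 0.00185) and 0.40 in WT (adjusted p = 0.00540). The other 8 passed in no comparison of the sorted subsets or of total DCs. Among the 22 promoter windows of members higher in WT CD8+ DCs, the YY1 core lay in 40.9% (9 windows), the GABP/ETS core in 27.3% (6) and the NRF1 core in 9.09% (2), against 22.9%, 24.3% and 14.3% of the windows of all members. The CCAAT box lay in 36.4%, the GC box in 27.3% and the TATA box in 4.55%, against 38.6%, 41.4% and 12.9%. The 22 windows are part of those of all members, and no difference in these shares was tested.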
